A study of Homo sapiens with 2 samples.

Results

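The genes of cholesterol synthesis, sterol sensing and sterol handling were followed in PLC/PRF/5 cells, an established line from a human liver cancer, in 1 library of cells overexpressing the zinc-finger protein NFX1 and 1 library of cells with an empty vector. Both cultures were kept under hypoxia, and no oxygen level or duration is given in the labels. The genes were chosen by symbol from a list of 28, of which 27 had a row of their own among 24991 single-symbol genes in a table of 28658 rows. TM7SF2, a sterol reductase acting on intermediates after lanosterol, shared its row with VPS51 and could not be read separately. That shared row had 135 FPKM in the NFX1 library and 108 FPKM in the vector library. FPKM counts sequenced fragments per kilobase of transcript and per fixed number of fragments sequenced. Levels are thus adjusted for transcript length and sequencing depth, but not for other differences between libraries, such as a trend with base composition. Neither group had replicates, so no test across samples was possible, and the differences given here are between 2 libraries rather than between conditions.

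Cells build cholesterol from acetyl-CoA through mevalonate, isoprenoid units and squalene, which is closed into the ring sterol lanosterol and then trimmed and reduced. Molecular oxygen is consumed late in the route: SQLE adds oxygen to squalene, CYP51A1 removes a methyl group from lanosterol, MSMO1 oxidises further methyl groups and SC5D introduces a double bond. The transcription factors encoded by SREBF2 and SREBF1 switch these genes on. SCAP escorts them out of the endoplasmic reticulum when sterols are scarce and INSIG1 holds them back when sterols are plentiful. Hepatocytes are a major site of this synthesis.

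Promoter sequences of the sterol genes were searched for the elements through which this control is known to act. They were taken from RefSeq on GRCh38.p14 and run from 250 bases before to 50 bases after the transcription start. The 3 shown are SREBF2, whose promoter was the only one of this group to hold the sterol regulatory element searched, LSS, the synthesis enzyme with the greatest increase between the libraries, and MSMO1, an oxygen-using enzyme with a lower value in the NFX1 library. They lie at chr22:41832855-41833154 on the plus strand, chr21:46228725-46229024 on the minus strand and chr4:165327419-165327718 on the plus strand. Capitals mark the motifs TCACNCCAC, the sterol regulatory element, and CCAAT, the box bound by NF-Y, on either strand (ATTGG where CCAAT is on the opposite strand).
SREBF2: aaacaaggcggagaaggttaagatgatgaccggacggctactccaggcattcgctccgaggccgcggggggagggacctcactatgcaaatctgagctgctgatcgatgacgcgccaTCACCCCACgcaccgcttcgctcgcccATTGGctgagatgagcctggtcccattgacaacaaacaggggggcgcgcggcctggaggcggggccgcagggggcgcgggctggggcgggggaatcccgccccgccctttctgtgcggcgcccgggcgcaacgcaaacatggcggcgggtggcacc
LSS: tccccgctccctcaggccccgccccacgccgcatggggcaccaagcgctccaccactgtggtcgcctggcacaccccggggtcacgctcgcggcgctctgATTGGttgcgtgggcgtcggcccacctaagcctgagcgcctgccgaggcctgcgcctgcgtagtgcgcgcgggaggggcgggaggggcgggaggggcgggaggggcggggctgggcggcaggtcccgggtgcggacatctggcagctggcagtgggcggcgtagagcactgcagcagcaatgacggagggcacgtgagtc
MSMO1: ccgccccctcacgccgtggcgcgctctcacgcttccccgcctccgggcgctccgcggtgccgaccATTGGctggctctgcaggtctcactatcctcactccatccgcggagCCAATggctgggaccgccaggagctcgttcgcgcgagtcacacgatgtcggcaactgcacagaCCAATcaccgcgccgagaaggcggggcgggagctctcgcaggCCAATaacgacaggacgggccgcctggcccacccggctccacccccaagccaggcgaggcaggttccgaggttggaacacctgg

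In SREBF2 the match TCACCCCAC began 133 bases before the start, and 18 bases separated it from an ATTGG. MSMO1 held 4 CCAAT boxes, the one nearest to the start beginning 34 bases before it, and LSS held 1. RefSeq promoters were found for 23 of the 27 genes (30 promoters, since some genes have several), and none for ACAT2, FDFT1, SQLE and SOAT2. CCAAT occurred in 66.7% of the 30, against 34.6% of all 35116 promoters of the same length, and TCACNCCAC in 3.33%, against 1.13%. The cores of the hypoxia response element, which hypoxia-inducible factors bind, were ACGTG, in 23.3% against 21.4% of all promoters, and GCGTG, in 83.3% against 36.5%. These are letter matches that can overlap one another, and no base composition was matched between the promoters compared.

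The libraries differed by much in NFX1 and by little in depth. NFX1 itself had 56.0 FPKM in the NFX1 library and 4.21 FPKM in the vector library, 13.3 times as much. Depth, estimated from the smallest steps between low values, was 1.14 times as great for the NFX1 library as for the vector library. All 16 listed hepatocyte markers reached 1 FPKM in the NFX1 library and 15 in the vector library, with summed levels of 11456 FPKM in the NFX1 library and 9993 FPKM in the vector library. The sum over all 11182 genes with at least 1 FPKM in a library was also higher in the NFX1 library, at 736614 FPKM against 670208 FPKM in the vector library. None of 8 fibroblast or 6 endothelial markers reached 1 FPKM, and 4 of 9 blood cell markers did in each library, with summed levels of 121 FPKM in the NFX1 library and 111 FPKM in the vector library. Of the blood cell markers, the leukocyte gene PTPRC and the T cell gene CD3E were listed at 0 in both libraries, and CD68 and LYZ held most of the sum. The globin genes HBA1 (13.1 FPKM in the NFX1 library and 8.72 FPKM in the vector library) and HBA2 (6.03 FPKM in the NFX1 library and 3.63 FPKM in the vector library) were the only listed blood genes past 1.2-fold. The endothelial genes CDH5 and KDR were also at 0 in both. Their part in the differences below was not tested.

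Most of the sterol genes were well expressed, and the differences between the libraries were small. Of the 27 genes, 25 had at least 1 FPKM in at least 1 library, the limit used for a measured gene. Their median level was 46.4 FPKM in the NFX1 library and 42.4 FPKM in the vector library, against 10.2 FPKM in either library over all 11182 measured genes. Their levels summed to 1375 FPKM in the NFX1 library and 1207 FPKM in the vector library. All measured genes together also had the higher sum in the NFX1 library, 736614 FPKM against 670208 FPKM in the vector library. Changes are given as log2 of NFX1 over vector after adding 1 FPKM to each value, which understates the change of low genes. The median change of the 25 genes was 0.10, against 0.01 over all measured genes. Values were higher in the NFX1 library for 17 genes (52% of all measured genes were higher) and lower for 8 (48% of all were lower). In bulk RNA, fewer cells with a transcript and less of it per cell cannot be told apart.

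Of the 25 genes, 6 were at least 1.2-fold higher in the NFX1 library, PMVK, MVD, FDFT1, LSS, DHCR7 and SREBF1, against 11.5% of all measured genes. SOAT1 alone was at least 1.2-fold lower, against 4.95% of all measured genes. With the libraries scaled to equal upper quartiles these counts were 3 higher and 1 lower, against 5.46% and 10.9% of all genes. None of the 25 reached 1.5-fold in either direction, which 0.42% of all measured genes did upward and 0.215% downward. The authors' deposited table marked 0 of the 25 as significant, with p-values between 0.124 and 0.980 and no q-value under 0.999; with single libraries these carry no spread between cultures.

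**Figure D1:**
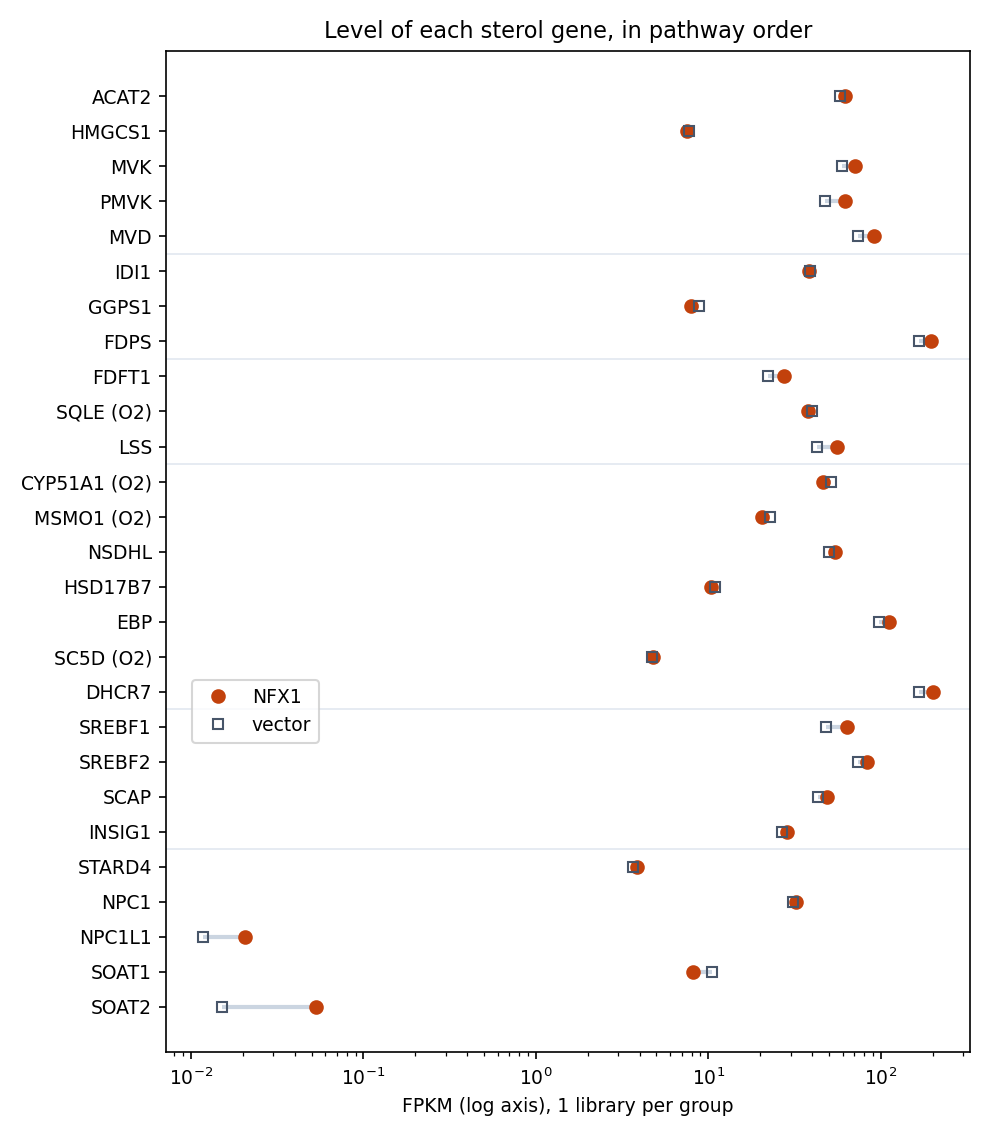
FPKM of each of the 27 sterol genes in pathway order from top to bottom, on a log axis, with filled circles for the NFX1 library and open squares for the vector library (1 library each); horizontal lines part the roles and (O2) marks enzymes that use molecular oxygen. DHCR7 and FDPS sit highest, at 201 and 197 FPKM in the NFX1 library, while NPC1L1 and SOAT2 lie under 0.1 FPKM in both libraries.

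The mevalonate enzymes opened the pathway with higher values at 4 of 5 steps (52% of all measured genes were higher), and a median change of 0.24. ACAT2, which joins acetyl-CoA units, had 61.8 FPKM in the NFX1 library and 58.4 FPKM in the vector library. HMGCS1, the HMG-CoA synthase, had 7.48 FPKM in the NFX1 library and 7.74 FPKM in the vector library, the lowest level of the 5 and the only one that was not higher in the NFX1 library. The kinases and the decarboxylase that follow were higher in the NFX1 library. MVK, mevalonate kinase, had 70.5 FPKM in the NFX1 library and 59.5 FPKM in the vector library, a fold of 1.19. PMVK, phosphomevalonate kinase (chromosome 1, 154897208 to 154909484, hg19), had 62.0 FPKM in the NFX1 library and 47.6 FPKM in the vector library, a fold of 1.30. MVD, the decarboxylase that yields isopentenyl diphosphate (chromosome 16, 88718348 to 88729557), had 91.6 FPKM in the NFX1 library and 73.7 FPKM in the vector library, a fold of 1.24. Exact 95% intervals of these folds, from estimated fragments, were 1.13 to 1.25 for MVK, 1.22 to 1.39 for PMVK and 1.18 to 1.31 for MVD. Such intervals cover counting error only, and by that measure 13 of the 25 genes lay above 1 (28.4% of genes with an interval did), 2 lay below 1 (16.5%) and 10 included 1. These shares were not matched for level or GC content. Intervals narrow as fragments rise, and the 25 genes had a median of 46.4 FPKM in the NFX1 library, against 10.2 FPKM over all measured genes.

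The isoprenoid steps did not move as a block. IDI1, which interconverts the isoprenoid building units, had 38.3 FPKM in the NFX1 library and 38.8 FPKM in the vector library. GGPS1, which makes the geranylgeranyl chain attached to small GTPases and so leads away from sterols, had 7.89 FPKM in the NFX1 library and 8.86 FPKM in the vector library, with an interval of 0.760 to 1.04 for the fold. FDPS, which makes farnesyl diphosphate and is the abundant enzyme of this stretch, had 197 FPKM in the NFX1 library and 167 FPKM in the vector library, with an interval of 1.14 to 1.22. FDPS was thus the higher one in the NFX1 library while the other two differed by less than their counting error.

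Squalene synthesis and ring closure both had higher values in the NFX1 library, on either side of an oxygen-using step that did not. FDFT1, squalene synthase (chromosome 8, 11653082 to 11696818), had 27.3 FPKM in the NFX1 library and 22.2 FPKM in the vector library, a fold of 1.23 with an interval of 1.14 to 1.33. SQLE, the epoxidase that follows (chromosome 8, 126010720 to 126034525), had 37.9 FPKM in the NFX1 library and 39.8 FPKM in the vector library, a fold of 0.954 with an interval of 0.885 to 1.03. LSS, which closes the epoxide into lanosterol (chromosome 21, 47608360 to 47648738), had 55.6 FPKM in the NFX1 library and 42.4 FPKM in the vector library, a fold of 1.31 with an interval of 1.25 to 1.37. The 2 enzymes flanking SQLE had higher values in the NFX1 library, and the interval of SQLE did not overlap theirs.

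After lanosterol, the oxygen-using enzymes CYP51A1 and MSMO1 had lower values in the NFX1 library, while SC5D did not. CYP51A1, a cytochrome P450 (chromosome 7, 91741463 to 91810039), had 46.4 FPKM in the NFX1 library and 51.6 FPKM in the vector library, a fold of 0.901 with an interval of 0.850 to 0.954. MSMO1 (chromosome 4, 166248818 to 166264314) had 20.4 FPKM in the NFX1 library and 22.7 FPKM in the vector library, a fold of 0.899 with an interval of 0.803 to 1.01. SC5D had 4.76 FPKM in the NFX1 library and 4.74 FPKM in the vector library, the lowest level of all 18 synthesis enzymes measured and level between the libraries. Of these 3, CYP51A1 alone had an interval below 1.

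The dehydrogenases, isomerase and reductase of the same stretch were mostly higher in the NFX1 library. NSDHL, which removes the oxidised methyl groups, had 54.4 FPKM in the NFX1 library and 49.9 FPKM in the vector library. HSD17B7, the ketosteroid reductase that works beside it, had 10.3 FPKM in the NFX1 library and 10.9 FPKM in the vector library. Its pseudogene HSD17B7P2 had 0.760 FPKM in the NFX1 library and 0.388 FPKM in the vector library, so reads may be split between them and its value is uncertain. EBP, which shifts a double bond in the ring, had 112 FPKM in the NFX1 library and 97.7 FPKM in the vector library. DHCR7, which reduces the last ring double bond to give cholesterol, had 201 FPKM in the NFX1 library and 167 FPKM in the vector library, a fold of 1.21 with an interval of 1.16 to 1.26. HSD17B7 was the only one of these 4 that was lower in the NFX1 library, and its interval, from 0.751 upward through 1, was the widest among the synthesis enzymes.

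**Figure D2:**
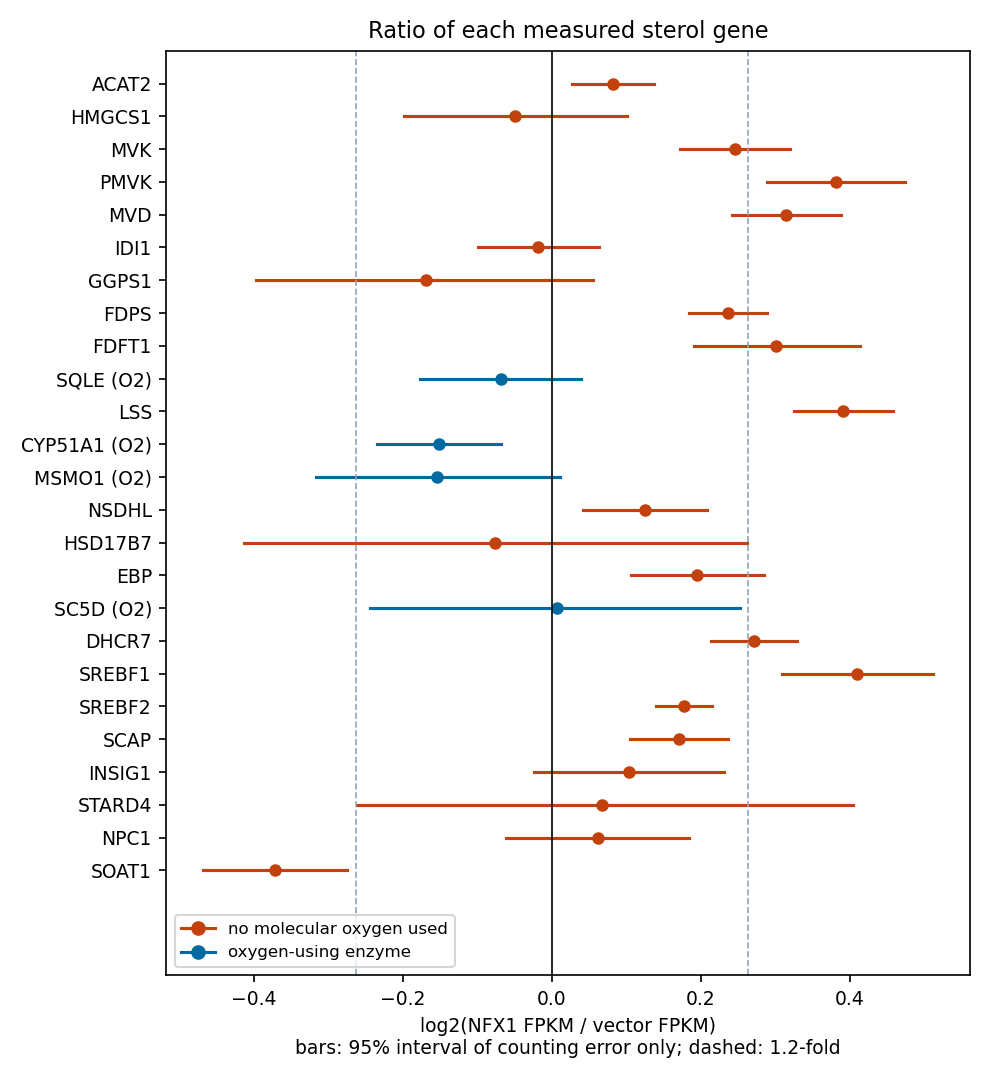
log2 of the NFX1 over vector FPKM ratio for the 25 measured sterol genes in pathway order, with bars for the 95% counting interval, blue for oxygen-using enzymes and orange for the others; dashed lines mark 1.2-fold. Of the 4 blue points 3 lie left of 0 and SC5D lies at 0.01, and SREBF1, LSS and PMVK lie farthest right.

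Set side by side, the 4 oxygen-using enzymes had a median change of -0.11, with 3 lower and SC5D at 0.01. The other 14 synthesis enzymes had a median of 0.21, with 10 higher and 4 lower. Of all measured genes 52% were higher and 48% lower. SC5D lay so near 0 that scalings which shift all genes alike turned its sign, to -0.05 with equal upper quartiles and -0.01 with changes centred on the median of all genes. The oxygen-using enzymes summed to 110 FPKM in the NFX1 library and 119 FPKM in the vector library, while the other 14 summed to 997 FPKM in the NFX1 library and 852 FPKM in the vector library. The sum over all measured genes was also higher in the NFX1 library, as given above. The same enzymes also differed in base composition: the median transcript GC content was 39.8% for the oxygen-using enzymes and 53.1% for the others. Of the other enzymes, HMGCS1, IDI1 and GGPS1 had GC content within the range of the oxygen-using ones (38.1% to 43.8%), and their changes were -0.04, -0.02 and -0.15.

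Change and base composition went together among the sterol genes and across the transcriptome. Across the 25 genes Pearson's r between change and transcript GC content was 0.84, and across 10979 measured genes with a GENCODE transcript it was 0.56; genes of the same 2 libraries are not independent replicates, and r describes these libraries only. When all measured genes were divided into 5 bins of equal size by GC content, the bin of lowest GC (median 40.3%) had a median change of -0.11 and that of highest GC (median 62.7%) one of 0.20. That lowest bin held 8 of the sterol genes, 6 of them lower in the NFX1 library. The 2 bins of highest GC held 10, all higher in the NFX1 library. The fourth of the 5 bins (median GC 56.7%) had a median change of 0.14 over all its genes. By the signs of these medians, most of all genes in these bins went the same way as the sterol genes there. How much of each difference belongs to base composition was not tested, and each change was therefore also computed after removal of the trend on GC content, transcript length and expression level fitted over all genes.

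**Figure D3:**
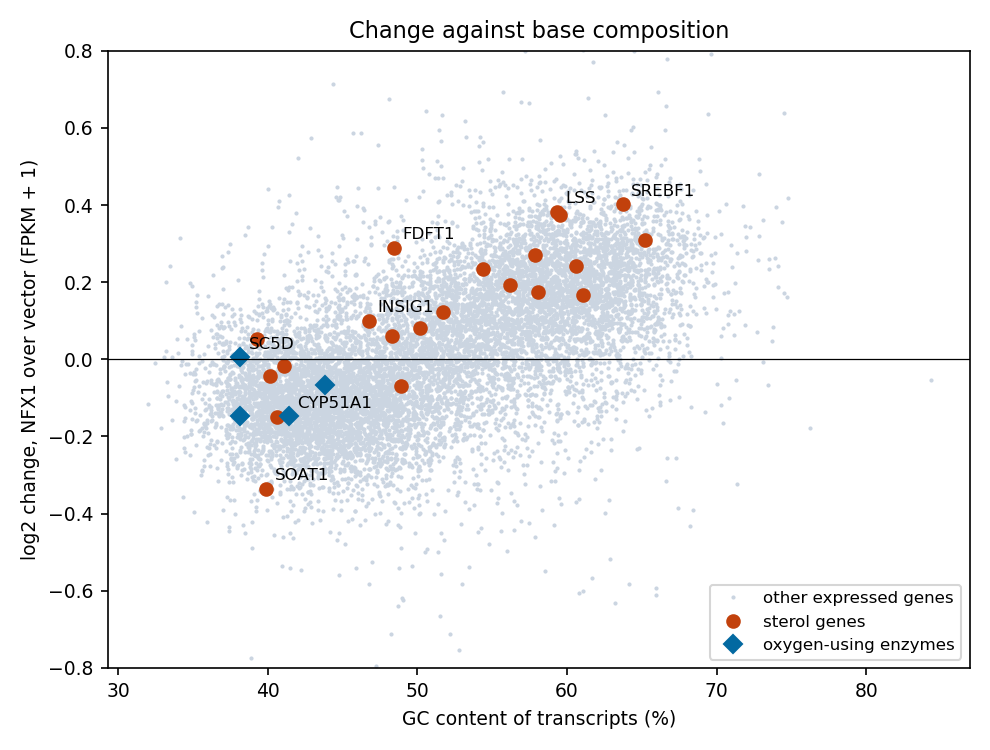
log2 change, NFX1 over vector, against transcript GC content in percent; grey dots are other measured genes, orange circles sterol genes and blue diamonds oxygen-using enzymes, with 25 grey genes beyond 0.8 in size not shown. The sterol genes follow the grey cloud upward with GC content, FDFT1 sits above it and SOAT1 near its lower edge.

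After removal of the trend the differences were smaller. The median change of the 25 genes was 0.06, against 0.00 over all genes, with 18 higher (50.3% of all genes) and 7 lower (49.7%). FDFT1 alone stayed past 1.2-fold, at 0.32 against 0.29 as deposited, where 3.32% of all genes were past 1.2-fold upward and 3.58% downward. Its transcripts had 48.4% GC, below the median of 50.7% in the middle bin, and its change exceeded the median of that bin by 0.29. LSS stood at 0.21 and 0.38 as deposited, PMVK at 0.18 and 0.37, and SREBF1 at 0.17 and 0.40. The mevalonate enzymes MVK and MVD were at 0.04 and 0.06, and HMGCS1 turned to 0.08, so that all 5 were above 0. The oxygen-using enzymes had a median of -0.05, with SQLE at -0.00, CYP51A1 at -0.09, MSMO1 at -0.10 and SC5D at 0.10, and the other 14 synthesis enzymes a median of 0.07, with 12 above 0. The gap between these medians was therefore narrower than as deposited, and SC5D and CYP51A1 lay on opposite sides of 0.

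**Figure D4:**
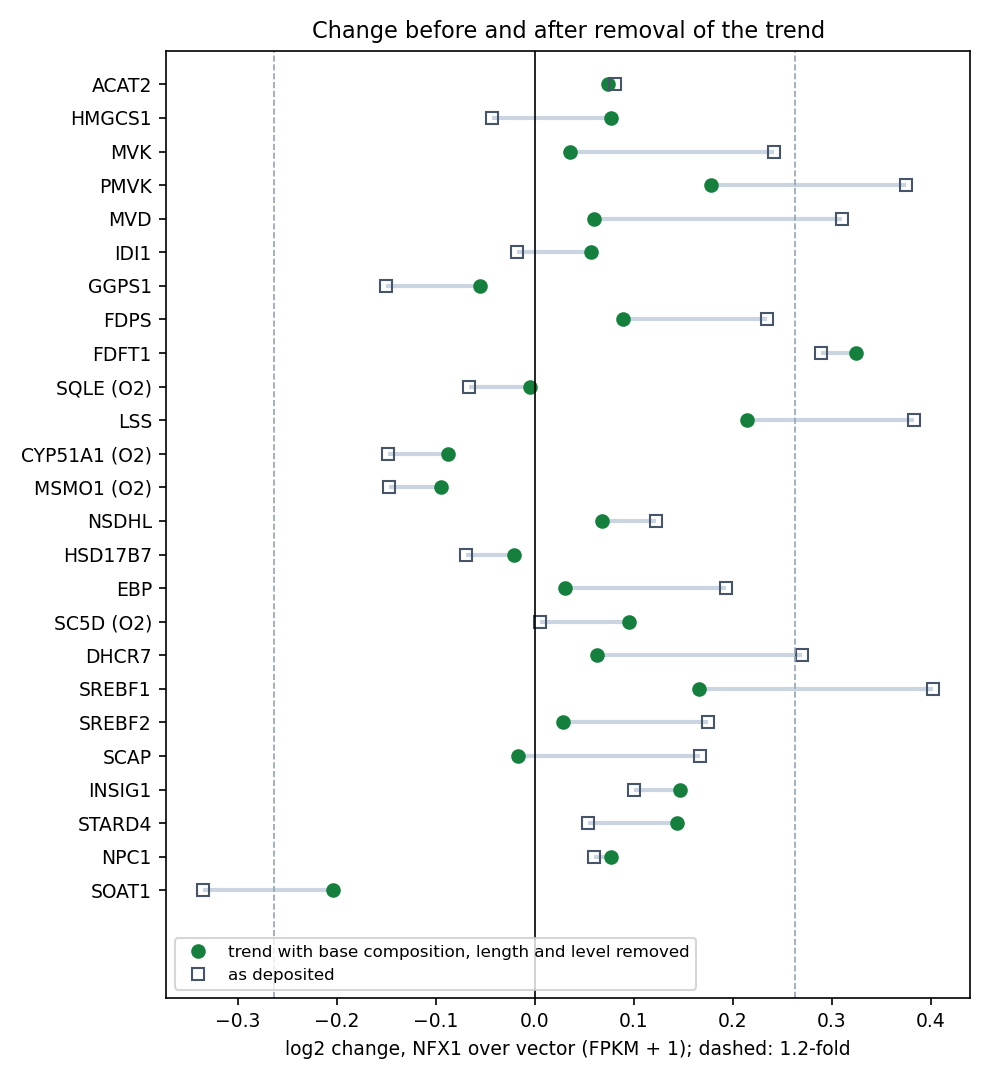
log2 change, NFX1 over vector, of the 25 measured sterol genes as deposited (open squares) and after removal of the trend with GC content, length and expression (green circles); dashed lines mark 1.2-fold. FDFT1 is the only green circle past 1.2-fold, and the values of most GC-rich genes, such as MVD and DHCR7, lie closer to 0 after removal.

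All 4 measured genes of sterol sensing were higher in the NFX1 library as deposited (52% of all measured genes were), and 3 of 4 after removal of the trend (50.3% of all). SREBF1, SREBF2 and SCAP lay in the bins of highest GC content. SREBF1, which chiefly drives fatty acid genes (chromosome 17, 17584787 to 17740325), had 63.7 FPKM in the NFX1 library and 48.0 FPKM in the vector library, a fold of 1.33 with an interval of 1.24 to 1.43. SREBF2, which chiefly drives the sterol genes (chromosome 22, 42229083 to 42303312), had 83.1 FPKM in the NFX1 library and 73.4 FPKM in the vector library, a fold of 1.13 with an interval of 1.102 to 1.161; its change of 0.18 was 0.03 with the trend removed. Of the 25 genes SREBF1 had the greatest increase and SREBF2 a smaller one, and their intervals did not overlap. SCAP, the sterol-sensing escort, had 48.9 FPKM in the NFX1 library and 43.5 FPKM in the vector library, a change of 0.17, or -0.02 with the trend removed. INSIG1, the retention factor and itself a target of these transcription factors, had 28.6 FPKM in the NFX1 library and 26.7 FPKM in the vector library. Its fold had an interval of 0.983 to 1.17, and its change was 0.10, or 0.03 under upper quartile scaling and 0.15 with the trend removed. The row of SREBF1 shares its assembled locus with RAI1 and MIR33B, and that of SREBF2 with MIR33A. Among the enzymes, ACAT2 shares one with TCP1, FDPS with RUSC1, IDI1 with IDI2-AS1 and CYP51A1 with CYP51A1-AS1, and so do STARD4 with STARD4-AS1 and NPC1 with C18orf8. Whether strand was used in counting is not given in the sources used here, so reads of such neighbours may not be told apart.

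Genes that move or store cholesterol differed among themselves. STARD4, which carries sterols between membranes, had 3.85 FPKM in the NFX1 library and 3.67 FPKM in the vector library, and NPC1, which exports cholesterol from lysosomes, had 32.1 FPKM in the NFX1 library and 30.8 FPKM in the vector library. Their changes of 0.05 and 0.06 were -0.00 and -0.01 under upper quartile scaling. SOAT1, which esterifies cholesterol for storage (chromosome 1, 179262849 to 179327814), had 8.15 FPKM in the NFX1 library and 10.5 FPKM in the vector library, a fold of 0.773 with an interval of 0.723 to 0.826. It was the greatest decrease of the 25 genes, at -0.34 as deposited and -0.20 with the trend removed, with transcripts of 39.9% GC. SOAT2, the intestinal and hepatic isoenzyme, had 0.0529 FPKM in the NFX1 library and 0.0152 FPKM in the vector library, an estimated 2 fragments in the NFX1 library and 1 in the vector library. NPC1L1, the intestinal cholesterol importer, had 0.0204 FPKM in the NFX1 library and 0.0117 FPKM in the vector library, an estimated 3 fragments in the NFX1 library and 1 in the vector library. No difference was detectable for either gene at this depth.

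Genes around the pathway were taken from 6 related lists. For the machinery that processes these transcription factors and degrades sterol enzymes, 11 of 15 genes were lower in the NFX1 library as deposited, 13 under upper quartile scaling and 14 after removal of the trend. The shares of all measured genes that were lower were 48%, 58.7% and 49.7%. The median of the list was -0.14 as deposited and -0.09 with the trend removed. In the list 1 gene was past 1.2-fold downward as deposited (4.95% of all measured genes) and 0 with the trend removed (3.58%). PGRMC1, a membrane heme-binding protein, had 38.4 FPKM in the NFX1 library and 46.4 FPKM in the vector library. INSIG2, the second retention factor, had 7.92 FPKM in the NFX1 library and 9.53 FPKM in the vector library, a change of -0.24 next to 0.10 for INSIG1. ERLIN1, which helps sterol-dependent degradation at the endoplasmic reticulum, had a change of -0.24, and the ubiquitin ligase RNF145 one of -0.21. After removal of the trend these 4 stood at -0.20, -0.16, -0.18 and -0.09.

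Targets of SREBF1 in fatty acid synthesis were not uniformly higher, with 4 of 14 higher and 10 lower (median -0.07). Of all measured genes 52% were higher and 48% lower. After removal of the trend 7 of 14 were higher, near the share of all genes (50.3%). The desaturase FADS2 had 90.4 FPKM in the NFX1 library and 65.7 FPKM in the vector library, a change of 0.46 that was 0.31 afterwards. PCYT2, of phosphatidylethanolamine synthesis, had a change of 0.44 (0.26 afterwards), the fatty acid synthase FASN 0.33 (0.09 afterwards) and the acyl-CoA synthetase ACSL4 -0.33 (-0.27 afterwards). These 4 were the greatest changes of the list, 3 of them past 1.2-fold upward and ACSL4 past it downward. Of all measured genes 11.5% were past 1.2-fold upward and 4.95% downward.

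The prenyl and dolichol branch draws on the same isoprenoids. Of its genes 8 of 11 were lower as deposited, 9 under upper quartile scaling and 6 after removal of the trend. Of all measured genes 48%, 58.7% and 49.7% were lower in the same order, so the count after removal lay near the share of all genes. RABGGTA, a subunit that prenylates Rab GTPases, had 18.2 FPKM in the NFX1 library and 13.6 FPKM in the vector library, and FNTA, the shared subunit of the farnesyl and geranylgeranyl transferases, 18.7 FPKM in the NFX1 library and 23.5 FPKM in the vector library. NUS1, of dolichol synthesis, had a change of -0.27 and COQ2, of ubiquinone synthesis, one of -0.23. With the trend removed RABGGTA stood at 0.24, FNTA at -0.26, NUS1 at -0.17 and COQ2 at -0.17.

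Sterol transport and efflux genes had 9 of 15 higher, against 52% of all measured genes. Their median of 0.10 became 0.01 after removal of the trend. MYLIP, a ubiquitin ligase that directs lipoprotein receptors to degradation, had 1.28 FPKM in the NFX1 library and 1.95 FPKM in the vector library, a change of -0.37 that was -0.32 afterwards. NR1H2, an oxysterol-sensing nuclear receptor, had a change of 0.26 (0.03 afterwards), the oxysterol-binding protein OSBP -0.23 (-0.18 afterwards) and its relative OSBPL2 -0.23 (-0.22 afterwards).

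In oxysterol and bile acid synthesis 5 of 14 genes were measured. All 5 were higher as deposited and 4 under upper quartile scaling or after removal of the trend. Of all measured genes 52% were higher as deposited, 58.7% were lower under upper quartile scaling and 50.3% were higher after removal of the trend. CYP27A1, a sterol hydroxylase, had 10.2 FPKM in the NFX1 library and 8.16 FPKM in the vector library, a change of 0.29 that was 0.18 afterwards. SLC27A5 had a change of 0.27 (0.11 afterwards), HSD3B7 one of 0.18 (0.00 afterwards) and BAAT, which conjugates bile acids, one of 0.08 (0.20 afterwards). Of the other sterol and acetyl-CoA genes 9 of 10 were higher as deposited, 5 under upper quartile scaling and 8 after removal of the trend. These stand beside the same shares of all measured genes. ACSS2, which makes acetyl-CoA from acetate, had 15.2 FPKM in the NFX1 library and 12.8 FPKM in the vector library. ACLY, which makes it from citrate, had a change of 0.14 (0.06 afterwards) and TMEM97 one of 0.11 (0.15 afterwards).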

How the data were processed

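RNA was sequenced in 2 libraries, and the genotype label set the group of each. The submitters' processing notes name TopHat2 2.1.0, Cufflinks 2.2.1 and the build hg19. Annotation, settings, scaling and strandedness are not given in the sources used here. Per the file headers, the authors deposited FPKM per library and the authors' log2 fold change, test statistic (a score), p-value and q-value. Rows without a symbol (1651) or with several (492) stayed out, and a repeated symbol was represented by its row with the highest mean.

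Changes were computed as log2(NFX1 FPKM + 1) minus log2(vector FPKM + 1) for the 11182 genes that reached 1 FPKM in either library. The fold limit of 1.2 is descriptive. Members and lists were chosen with earlier results of these data known. Named were all members and up to 4 genes of each related list by size of change; cell type lists are given as sums and counts, with a few markers named after their values were seen, and 1 gene that the rule selects is not reported here.

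Depth was estimated because the table holds no counts: among 1997 rows under 0.15 FPKM, 62.2% had a ratio that matched, within 0.02 on the log2 scale, a ratio of whole fragments up to 5, against a median of 8.54% for shifted steps, and 7 olfactory receptor genes gave the worth of 1 fragment in the vector library. An upper bound of 0.06 for that step was set after its values were seen. Fragments per gene used the median length of GENCODE 29 protein-coding transcripts, matched by symbol or RefSeq synonym and without coordinates. Exact (Clopper-Pearson) 95% intervals cover counting error only. Too short a length widens them and too long a length makes them too narrow. Whether any length is too long was not tested. Too short a length is probable for SREBF1 (1058 bp) and possible for others, such as HSD17B7 (507 bp) and DHCR7 (968 bp). The GC, length and expression trend was fitted with cubic splines (3 inner knots) on genes within 2-fold, for 10979 genes, and took 40.5% of the variance. Steps were tested on simulated data. The software was Python 3.11.15 with scipy 1.17.1, numpy 2.4.6, matplotlib 3.10.9 and pandas 2.3.3.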

Additional observations from a re-analysis of the deposited data

How the results depend on the processing

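No paired analysis was possible because each group had 1 library. The count of genes at least 1.2-fold higher was 6 as deposited, 3 under upper quartile scaling and 1 after removal of the trend with GC content, length and expression; with other fold limits it was 11 at 1.1-fold (29.4% of all genes), 0 at 1.5-fold and 0 at 2-fold. The count at least 1.2-fold lower was 1 as deposited, 0 with a pseudocount of 5 and 0 after removal of the trend, and 4 at 1.1-fold (20.7% of all genes), 0 at 1.5-fold and 0 at 2-fold. On the log2 scale 1.2-fold is 0.263. With a pseudocount of 5 SOAT1 stood at -0.241, and under upper quartile scaling MVD, FDFT1 and DHCR7 stood at 0.238, 0.218 and 0.197, all short of that limit. The median change of the measured genes was above 0 under each of the 9 alternatives that recompute it, between 0.03 and 0.12, and that of the oxygen-using enzymes below 0, between -0.18 and -0.05. These cover 25 genes, except 27 with no filter and 23 with FPKM of at least 5, which leaves out SC5D and gives the 0.12. A single gene was called moved where its change shifted by more than the distance, in log2, from the middle of its counting interval to the edge. By this measure genes moved under upper quartile scaling (6 of 25) and after removal of the trend (11 of 25), and under no other alternative. Upper quartile scaling multiplied every NFX1 value by 0.950, so by this measure only genes with narrow counting intervals could move. These counts stand without the share of all genes and describe no trait of the genes that moved. Depth limits NPC1L1 and SOAT2, with at most 3 estimated fragments in a library.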
